A study of Mus musculus with 12 samples.

Results

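Serine synthesis and the folate cycle were followed through 9 genes (Phgdh, Psat1, Psph, Shmt1, Shmt2, Mthfd1, Mthfd2, Mthfd1l and Tyms), chosen by name and found by symbol among the 56748 genes of the deposited count table. Of these, 8 carried reads and all 8 were tested, within 12547 genes that passed the filter on low counts. The cells were G1E-ER4, mouse proerythroblasts without endogenous GATA1 that express a GATA1-estrogen receptor fusion and enter erythroid differentiation when estradiol is added. The comparison set 3 libraries of Sf3b1 K700E/+ cells against 3 libraries of isogenic Sf3b1 +/+ cells, all collected after 24 h of β-estradiol, and libraries collected before estradiol were not analysed here. Both genotypes went through Cas9 editing with a hygromycin cassette that was then excised by flippase, and each genotype was 1 clone, so that clone and genotype cannot be told apart. The study states in general that its cell line experiments were repeated independently, but the labels do not say whether the 3 libraries of a genotype came from separate cultures. The p-values thus rest on the scatter among these libraries, which may be technical. The counts do not show the edited base, and the genotype of each library was taken from its label.

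Serine is made from the glycolytic intermediate 3-phosphoglycerate by Phgdh, Psat1 and Psph, in that order. Serine hydroxymethyltransferases (Shmt1 mainly in the cytosol, Shmt2 in mitochondria) then turn serine into glycine and hand a one-carbon unit to tetrahydrofolate, and the Mthfd enzymes oxidize, reduce or release that unit on both sides of the mitochondrial membrane. The units end up in purines, in methionine and, through Tyms, in thymidylate for DNA. Dividing erythroblasts depend on this cycle, and folate deficiency is a classical cause of megaloblastic anemia.

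At 24 h, 5 of the 8 tested genes were higher in K700E/+ cells, 3 did not pass the test and none was lower. At an unadjusted p under 0.05, 1 was lower (Mthfd1), and DESeq2 called 0 lower. With the replicate number as a block, by which same-numbered libraries are paired, 2 passed as lower (Mthfd1 and Tyms), and with library totals in place of scaling 1 did (Mthfd1). Shmt1, Psat1 and Mthfd2 rose most, with log2 fold changes of 0.99, 0.60 and 0.54, followed by Mthfd1l (0.31) and Shmt2 (0.27). A gene passed at an adjusted p under 0.05 in edgeR's quasi-likelihood test, and 21.3% of all tested genes were higher and 23.1% lower by that rule. None of the 8 reached an absolute log2 fold change over 1, the further limit for a differentially expressed gene (DEG), which 10.3% of tested genes passed. Shmt1 lay just below it and went past it in 5 of the 12 alternatives run, among them DESeq2 and the fits without replicate 2 or 3 of K700E/+ or replicate 1 of +/+. The 8 genes had a median log2 fold change of 0.29, beside -0.01 over all tested genes. Phgdh, the first enzyme of the pathway, had no read in any of the 6 libraries.

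The promoters of the genes that rose most, Shmt1, Psat1 and Mthfd2, and of Tyms, which had the lowest fold change, are printed to show what sequence precedes genes that moved differently. They hold the 250 bases before the transcription start in RefSeq (build GRCm38.p6), read 5′ to 3′ on the strand of the gene. Capitals mark matches on either strand to the letters of 7 motifs. These were the E-box (CACGTG), the binding site of GATA factors (letters AGATAA), the CCAAT box of that spelling and the GC box, whose letters were GGGCGG. The ATF4 composite element (TGATGNAA) and both E2F forms (TTTCCCGC or TTTGGCGC) were searched as well. The E-box reads the same on both strands, and the GC boxes nearest to the start of Shmt1 overlap each other.
Shmt1 (chr11:60811266-60811515, minus strand): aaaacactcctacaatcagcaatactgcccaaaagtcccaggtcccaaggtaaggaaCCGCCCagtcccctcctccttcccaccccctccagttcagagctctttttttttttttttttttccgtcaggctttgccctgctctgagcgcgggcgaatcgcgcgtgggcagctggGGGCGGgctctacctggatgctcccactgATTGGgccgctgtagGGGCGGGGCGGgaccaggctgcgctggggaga
Psat1 (chr19:15925060-15925309, minus strand, upstream of its annotated starts): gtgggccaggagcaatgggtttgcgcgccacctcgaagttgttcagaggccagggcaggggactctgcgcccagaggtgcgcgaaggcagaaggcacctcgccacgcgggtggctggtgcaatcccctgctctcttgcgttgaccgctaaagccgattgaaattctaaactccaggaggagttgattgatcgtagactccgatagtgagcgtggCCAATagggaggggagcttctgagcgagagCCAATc
Mthfd2 (chr6:83317605-83317854, minus strand): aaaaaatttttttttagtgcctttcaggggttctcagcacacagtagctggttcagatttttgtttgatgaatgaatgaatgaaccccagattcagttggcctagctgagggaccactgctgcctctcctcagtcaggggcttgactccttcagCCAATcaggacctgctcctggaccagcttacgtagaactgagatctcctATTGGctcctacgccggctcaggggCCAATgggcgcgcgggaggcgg
Tyms (chr5:30073626-30073875, minus strand): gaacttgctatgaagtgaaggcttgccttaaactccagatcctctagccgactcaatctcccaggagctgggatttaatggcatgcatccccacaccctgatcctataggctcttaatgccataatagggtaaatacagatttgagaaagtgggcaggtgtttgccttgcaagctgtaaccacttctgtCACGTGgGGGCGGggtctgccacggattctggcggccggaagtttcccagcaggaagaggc

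RefSeq held promoters for all 9 genes in 10 windows, since Psat1 has a second start. CCAAT boxes stood in the windows of Phgdh, Psat1 (the printed window only), Psph, Shmt1, Mthfd1 and Mthfd2, and in 33.8% of all 32851 mouse promoters and 36.7% of the 10806 promoters of tested genes. GC boxes stood in those of Psat1 (the second window only, which is not printed), Psph, Shmt1, Mthfd1, Mthfd1l and Tyms. They stood in 32.7% of all promoters, but in 58.0% of those of tested genes. The E-box was found before Tyms alone among the 9 genes and in 6.02% of all promoters (8.61% for tested genes). The letters of the GATA site, the ATF4 element and the E2F forms were not in these windows, and none of the motifs was found before Shmt2. The GATA letters stood in 9.99% of all promoters and 6.25% of those of tested genes, and the ATF4 element in 3.45% and 1.96%. For the E2F forms these shares were 0.895% and 1.82% (TTTCCCGC) and 0.417% and 0.870% (TTTGGCGC). A match describes the letters of the window and not a site that is bound.

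Phgdh, the dehydrogenase that draws 3-phosphoglycerate into serine synthesis, was listed at 0 reads in all 3 K700E/+ and all 3 +/+ libraries. A count of 0 allows up to 3 reads per library, or 0.0599 to 0.0701 CPM in K700E/+ and 0.0732 to 0.0756 CPM in +/+ cells, where CPM is the count relative to the TMM-scaled library total. These limits cover counting error only and hold only if reads of the gene could be counted, which the table does not show. Phgdh lay within a run of 13 neighbouring protein-coding genes with no read in any library, from Notch2 to Hao2 in the order of RefSeq, and 39.9% of the 21242 protein-coding genes matched to the table had no read. The next coding gene on one side, Wars2 (mitochondrial tryptophanyl-tRNA synthetase), had 666 to 869 reads in K700E/+ and 610 to 664 reads in +/+ libraries. On the other side, Gm5544 had 1 read in 1 library. The pseudogene Phgdh-ps1 was also at 0. A longer run, of 29 coding genes without a read, surrounded Mtap of the methionine salvage pathway, between Klhl9 (2099 to 2579 reads) and Tusc1 (454 to 548 reads). The DNA of these stretches was not measured, so that a gene that is absent, one that is silent and one whose reads were not counted cannot be told apart. Both neighbourhoods were looked at after the values had been seen.

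Psat1, the aminotransferase of the second step, stood at 742, 708 and 699 CPM in K700E/+ replicates 1, 2 and 3 and at 519, 457 and 439 CPM in +/+ replicates 1, 2 and 3. The lowest K700E/+ library was above the highest +/+ library. Mean levels were 716 ± 22.7 and 472 ± 42.3 CPM (SD, n = 3 each), a 1.52-fold difference (log2 fold change 0.60 ± 0.07 SE, adjusted p = 0.0002). Same-numbered libraries differed by 0.51, 0.63 and 0.67 on the log2 scale.

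Psph, the phosphatase that releases serine in the last step, stood at 65.0, 63.5 and 63.2 CPM in K700E/+ and at 62.1, 58.8 and 57.1 CPM in +/+ libraries. The genotypes did not overlap, but the closest libraries lay near each other and the test was not passed (log2 fold change 0.11 ± 0.06 SE, adjusted p = 0.17). Psat1 thus rose while its neighbour in the pathway gave no call, and the read ratio of Psat1 to Psph was 11.4, 11.2 and 11.1 in K700E/+ libraries against 8.36, 7.77 and 7.69 in +/+ libraries.

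**Figure D1:**
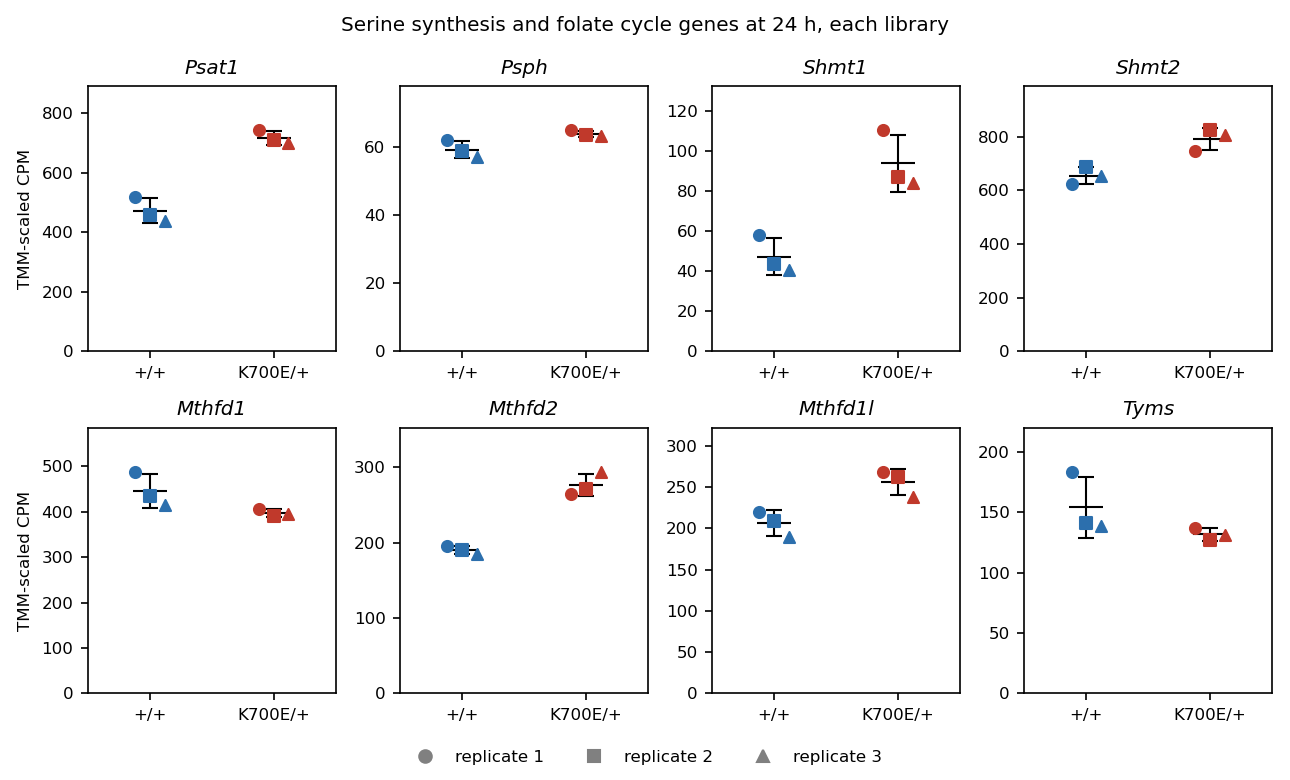
TMM-scaled CPM (vertical axis, from 0) of the 8 genes with reads in each library by genotype. Circles, squares and triangles are replicates 1, 2 and 3, and black marks give mean ± SD (n = 3). The 3 K700E/+ libraries lie above the 3 +/+ libraries for Psat1, Psph, Shmt1, Shmt2, Mthfd2 and Mthfd1l, and below them for Mthfd1 and Tyms.

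Shmt1, the mainly cytosolic hydroxymethyltransferase, had the largest fold change of the 8 genes. Its level was 110, 86.9 and 83.8 CPM in K700E/+ and 57.9, 43.4 and 40.4 CPM in +/+ libraries. Replicate 1 was the highest library of either genotype, yet even replicate 1 of +/+ stayed below every K700E/+ library. The means were 93.6 ± 14.4 and 47.2 ± 9.34 CPM, or 1.98-fold (log2 fold change 0.99 ± 0.15 SE, adjusted p = 0.00062). Between same-numbered libraries the log2 difference was 0.93, 1.00 and 1.05.

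Shmt2, the mitochondrial form, was by far the more abundant of both. It stood at 746, 825 and 807 CPM in K700E/+ and at 624, 687 and 656 CPM in +/+ libraries, so that the genotypes did not overlap. It rose 1.21-fold (log2 fold change 0.27 ± 0.07 SE, adjusted p = 0.0081). Inside each library, reads of Shmt1 per read of Shmt2 were 0.148, 0.105 and 0.104 in K700E/+ and 0.0927, 0.0632 and 0.0617 in +/+ cells. This ratio, which does not depend on library scaling, was 1.65-fold higher in K700E/+ cells and ranged from 0.55 to 0.91 on the log2 scale when each library was left out in turn.

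Mthfd2, the mitochondrial dehydrogenase and cyclohydrolase, had the lowest adjusted p of the 8 genes. It stood at 264, 271 and 293 CPM in K700E/+ and at 195, 191 and 185 CPM in +/+ libraries, with no overlap. The means were 276 ± 15.0 and 190 ± 5.26 CPM, a 1.45-fold difference (log2 fold change 0.54 ± 0.06 SE, adjusted p = 0.00013). Mthfd1l, which releases formate from mitochondria, stood at 268, 263 and 238 CPM in K700E/+ and at 220, 209 and 189 CPM in +/+ libraries. Its 1.24-fold rise (log2 fold change 0.31 ± 0.07 SE, adjusted p = 0.0080) was about that of Shmt2. All the mitochondrial enzymes of the list were therefore higher in K700E/+ cells.

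Mthfd1, the cytosolic enzyme that takes up formate and interconverts folate-bound units, stood at 407, 390 and 395 CPM in K700E/+ and at 487, 435 and 415 CPM in +/+ libraries. All 3 K700E/+ libraries were below all 3 +/+ libraries, yet the test was not passed (log2 fold change -0.17 ± 0.07 SE, adjusted p = 0.081). With the replicate number as a block the same gene passed as lower (log2 fold change -0.16, adjusted p = 0.018). Tyms, which methylates dUMP to thymidylate, stood at 137, 127 and 131 CPM in K700E/+ and at 183, 141 and 138 CPM in +/+ libraries. Replicate 1 of +/+ was high and the rest lay close together. Tyms was not called (log2 fold change -0.23 ± 0.10 SE, adjusted p = 0.11), passed as lower with the replicate block (-0.22, adjusted p = 0.012), and had a log2 fold change of -0.08 without replicate 1 of +/+. That last fit keeps replicate 1 of K700E/+, the highest library of its genotype, without its pair. Same-numbered libraries differed by -0.42, -0.16 and -0.08 on the log2 scale. With the block, 29.2% of all tested genes were lower. Reads of the pseudogene Tyms-ps were few, at 2 to 11 per library.

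Counted over the 8 genes, 6 had all K700E/+ libraries above all +/+ libraries and 2 had them below, where 26.4% and 27.9% of all tested genes did so. Ratios inside a library set the mitochondrial Mthfd enzymes against the cytosolic one without any scaling between libraries. Reads of Mthfd2 per read of Mthfd1 were 0.649, 0.696 and 0.743 in K700E/+ and 0.401, 0.439 and 0.445 in +/+ libraries, or 1.62-fold higher. Reads of Mthfd1l per read of Mthfd1 were 0.658, 0.674 and 0.604 against 0.452, 0.481 and 0.456, or 1.39-fold higher. That these ratios separate the genotypes follows from the single genes. Mthfd2 and Mthfd1l were higher, and Mthfd1 lower, in every K700E/+ library. The ratio of Psat1 to Psph was 1.41-fold higher. In a two-sided exact permutation test each of the 4 ratios gave p = 0.10 (adjusted over the 4, 0.10), the smallest that 3 against 3 libraries allow, so that this test could not pass 0.05.

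**Figure D2:**
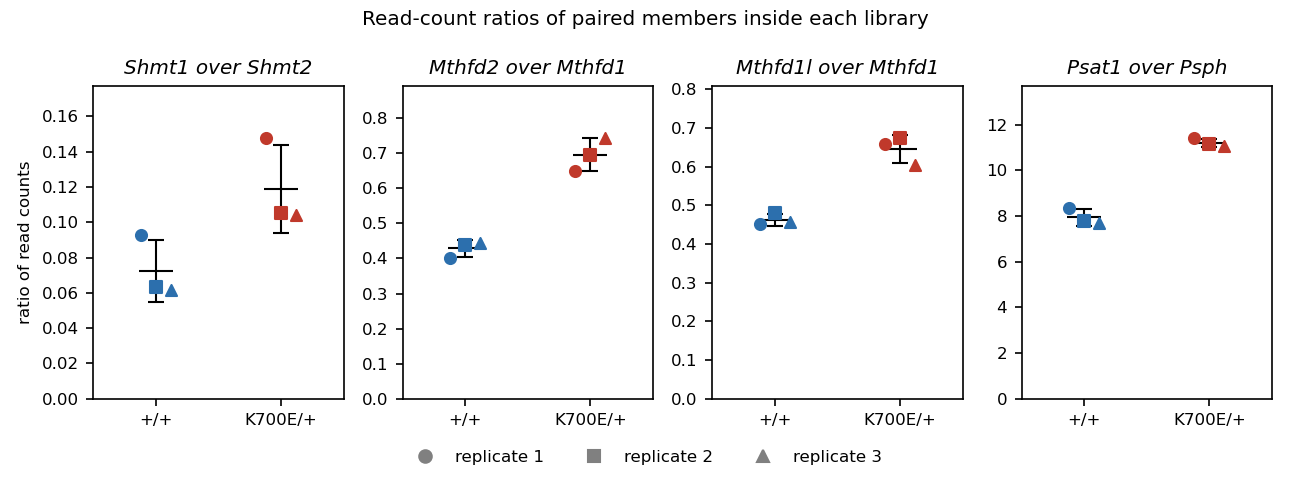
Ratio of read counts (vertical axis, from 0) inside each library for Shmt1 over Shmt2, Mthfd2 over Mthfd1, Mthfd1l over Mthfd1 and Psat1 over Psph. Symbols are replicates and black marks give mean ± SD (n = 3). All K700E/+ libraries lie above all +/+ libraries in each panel, and for Shmt1 over Shmt2 replicate 1 is the highest of its genotype. In the panels over Mthfd1 this separation follows from the single genes.

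Levels were compared between genes as CPM per kilobase of merged exons (GENCODE M21). The merged length counts every annotated exon, also those of retained-intron and decay transcripts. It ran from 3109 bases for Shmt2 to 6089 bases for Tyms among the 8 genes. A gene whose main transcript is much shorter than its merged length is placed too low, so that the order is approximate. In +/+ cells the order was Shmt2 (211), Psat1 (111), Mthfd1 (100.3), Mthfd2 (54.6), Mthfd1l (46.5), Tyms (25.3), Psph (13.7) and Shmt1 (12.2). Libraries of Psat1 and Mthfd1 overlapped in this order, and so did those of Psph and Shmt1, while the other neighbours stayed apart. Inside each +/+ library Psat1 stood above Mthfd1, whereas Shmt1 stood above Psph in replicate 1 (14.9 against 14.4) and below it in replicates 2 and 3. In K700E/+ cells Shmt2 (255) and Psat1 (168) led again, before Mthfd1 (89.4), Mthfd2 (79.3), Mthfd1l (57.8), Shmt1 (24.1), Tyms (21.6) and Psph (14.8). Only Shmt1 and Tyms overlapped there, and inside each K700E/+ library Shmt1 was the higher, though barely in replicate 3 (21.59 against 21.55). By this measure Shmt1 was the lowest of the 8 by its mean in +/+ cells and stood above Psph in every K700E/+ library.

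The 3 tested genes whose log2 CPM was most like that of Mthfd2 over the 6 libraries were Hspbp1 (Pearson r = 1.00, log2 fold change 0.61), Ddx24 (r = 0.999, 0.20) and Hcn2 (r = 0.999, 2.20). With 2 groups of 3 libraries such values are common, and 1049 genes had r over 0.95. The 6 points share genotype, library and depth, and the correlation is given as a description.

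The rest of folate handling held calls in both directions. Of 15 further folate enzymes and transporters, 8 were tested, 2 were higher, 1 was lower and the median log2 fold change was 0.11. Fpgs, which adds glutamates that keep folate in the cell, was at 45.4 ± 3.54 CPM in K700E/+ and 29.4 ± 4.18 CPM in +/+ cells (log2 fold change 0.62, adjusted p = 0.0014). Slc19a1, the reduced folate carrier, also rose (0.47, adjusted p = 0.0044), and Mthfd2l, the paralog of Mthfd2, fell (-0.78, adjusted p = 0.0028) at a low level of 2.00 against 3.44 CPM. The count of higher genes was 4 with the replicate block and 4 without replicate 1 of +/+, and that of lower genes was 2 with DESeq2 and 2 with no filter on low counts, where Aldh1l1, which is below the filter, was added. Aldh1l2 and Ggh had no read.

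Among 25 genes of serine and glycine transport and use, 15 were tested, 6 were higher and 3 lower, with a median of 0.18. Slc1a5, a transporter of glutamine and other neutral amino acids, stood at 79.6 ± 2.33 against 36.7 ± 2.65 CPM (log2 fold change 1.12, adjusted p = 5.6e-06), and Slc6a9, the glycine transporter GlyT1, rose by 0.47 (adjusted p = 0.00037). Sfxn3, of the family of mitochondrial serine carriers, and Sptlc2, a subunit of serine palmitoyltransferase, fell, with log2 fold changes of -1.30 (adjusted p = 2.7e-05) and -0.83 (adjusted p = 6.4e-05). Alas2, which uses glycine for heme and was picked out after its values were seen, had a log2 fold change of 0.54 that was not called (adjusted p = 0.089) and passed with the replicate block (adjusted p = 3.6e-05). The glycine cleavage gene Gldc and the serine dehydratase gene Sds had no read.

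The pathways that one-carbon units feed held genes that moved both ways, as did all tested genes, of which 21.3% were higher and 23.1% lower. In the methionine cycle, 4 of 10 tested genes were higher and 2 lower (median 0.10), with Ahcyl1 at 0.66 (adjusted p = 3.7e-05) and Mtrr, the reductase that keeps methionine synthase active, at 0.40 (adjusted p = 0.0013). Ahcy, which removes S-adenosylhomocysteine, fell to 23.5 ± 0.651 from 49.9 ± 6.49 CPM (-1.08, adjusted p = 3.5e-05), and Mat2b fell by 0.45 on the log2 scale (adjusted p = 0.00033). Of 12 tested genes of de novo purine synthesis, 5 were higher and 2 lower (median 0.23). Prps1 (0.47, adjusted p = 0.0011) and Adsl (0.45, adjusted p = 0.0020) rose, while Adss2, which leads to AMP, fell to 100.2 ± 4.52 from 246 ± 11.7 CPM (-1.30, adjusted p = 1.5e-06) and Impdh1 fell by 0.57 (adjusted p = 0.0074). Without replicate 1 of +/+ the purine genes that passed as higher were 8, and without replicate 3 of +/+ they were 2.

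All 20 genes of thymidylate and deoxynucleotide supply were tested, with 9 higher, 4 lower and a median of 0.24. For this list and the next, the shares over all tested genes were 21.3% higher and 23.1% lower. Rrm1, the large subunit of ribonucleotide reductase, rose to 1288 ± 6.72 from 961 ± 63.4 CPM (log2 fold change 0.42, adjusted p = 0.00075), and Dctpp1, a dNTP pyrophosphatase, rose by 0.62 (adjusted p = 0.00097). Samhd1, which breaks down dNTPs, fell to 40.5 ± 3.63 from 93.0 ± 0.420 CPM (-1.20, adjusted p = 5.1e-06), and Ctps2 fell to 10.1 from 31.2 CPM (-1.63, adjusted p = 9.9e-05). Without replicate 3 of +/+, 4 genes passed as higher. Around 3-phosphoglycerate, 7 of 16 genes of glycolysis were higher and none was lower (median 0.23, 11 higher with the replicate block). Ldha (0.82, adjusted p = 0.00013), Pfkm (0.56, adjusted p = 0.00025), Bpgm (0.47, adjusted p = 0.0014) and Aldoa (0.68, adjusted p = 0.0041) had the lowest adjusted p. Pgk1, which makes 3-phosphoglycerate, rose by 0.32 (adjusted p = 0.039), and Pgam1, which draws it onward, had a log2 fold change of -0.15 (adjusted p = 0.43). Both were named after their values were seen, as neighbours of Phgdh in the pathway.

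ATF4 is a transcription factor of the amino acid response, and Psat1, Shmt2 and Mthfd2 are among its known targets. Of 22 genes on a list of that response, all were tested, 15 were higher and 3 lower, with a median of 0.35. Cebpg rose to 136 ± 6.86 from 61.1 ± 5.21 CPM (log2 fold change 1.15, adjusted p = 7e-06). The amino acid transporter Slc7a5 (1.00, adjusted p = 4.1e-05) and the proline synthesis genes Pycr1 (1.15, adjusted p = 0.00012) and Aldh18a1 (0.71, adjusted p = 0.00013) rose as well. The 3 lower genes were Eif2ak1, Eif2ak4 and Slc7a11. Of these 3 calls, 0 were left without replicate 2 of K700E/+ or replicate 2 of +/+, and 1 was left without replicate 1 or 3 of K700E/+ or replicate 3 of +/+. The share of higher genes, 15 of 22, stood above the 21.3% of all tested genes. The list was chosen with earlier results of these data known, so that this excess is a description. A part of ATF4 in it was not tested.

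**Figure D3:**
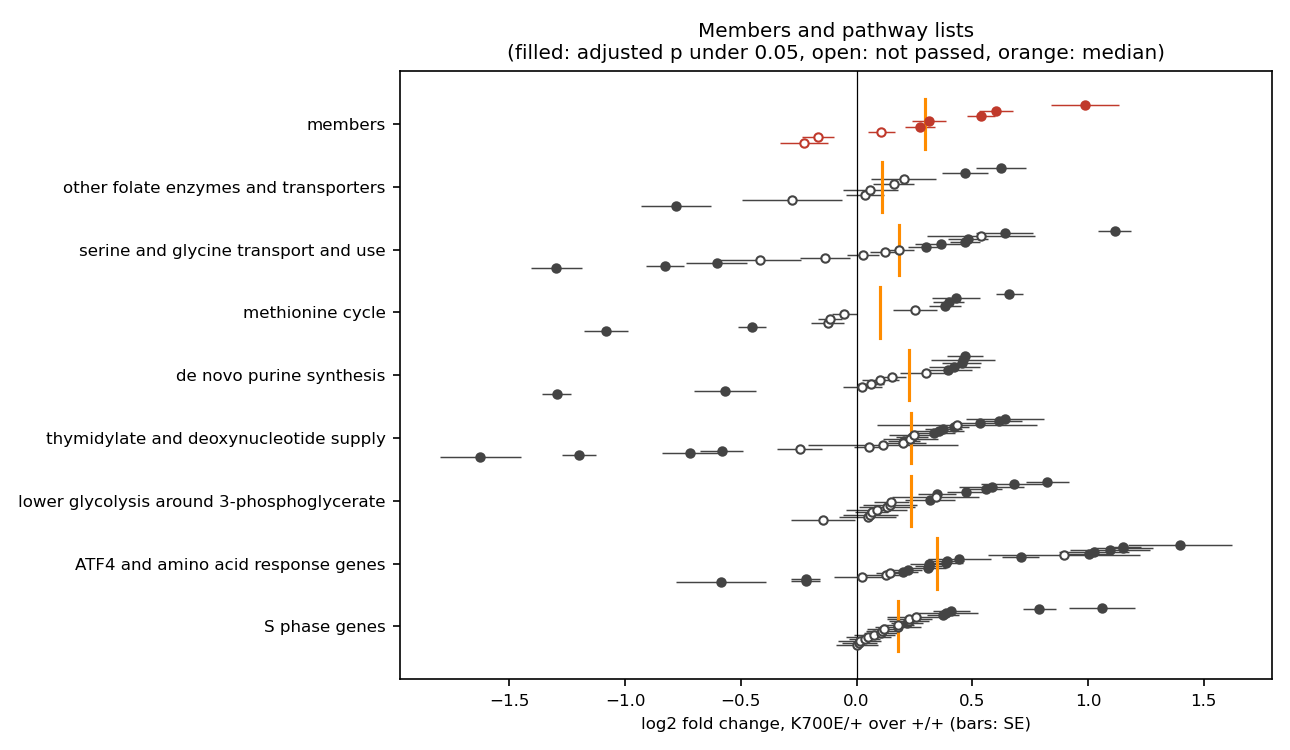
log2 fold change of K700E/+ over +/+ (horizontal axis, bars SE) for every tested gene of the 8 serine and folate genes (red) and of the other lists (grey). Filled points passed at an adjusted p under 0.05, open points did not, and orange lines are medians. The medians lie between 0.10 for the methionine cycle and 0.35 for the amino acid response genes, and glycolysis and S phase genes hold no call below 0.

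Other values moved with the genotype, and their part in the results above was not tested. Over all tested genes, 21.3% were higher and 23.1% lower. Of 20 S phase genes, 6 were higher and none lower (median 0.18), led by Cdc6 (0.79, adjusted p = 4e-05), Ccne1 (1.06, adjusted p = 0.00037), Mcm2 (0.41) and Cdc45 (0.37). Their count was 15 without replicate 1 of +/+ and 11 with the replicate block, and their summed level was 7416 to 7690 CPM in K700E/+ and 5979 to 7315 CPM in +/+ libraries. In the glycolysis and the S phase lists, 0 genes were lower with edgeR at an unadjusted p under 0.05 and 0 with DESeq2, but 1 gene of glycolysis (Pgam1) passed as lower without replicate 1 of +/+. Erythroblast markers were present, with 13 of 16 tested, 3 higher and 1 lower, and with summed levels that overlapped. Gata1, counted among the 3 higher, was at 320 ± 4.15 against 159.6 ± 14.0 CPM (log2 fold change 1.00, adjusted p = 9.4e-06). These cells lack endogenous GATA1 and express the fusion gene, so that Gata1 reads cannot be taken as a marker of maturation. Hemgn was at 0.76 (adjusted p = 4.9e-05) and Hbb-bt at -1.66 (adjusted p = 0.0050). All 5 tested of 14 granulocyte and macrophage markers were lower, and their list summed to 1.33 to 1.83 CPM in K700E/+ and 13.4 to 40.2 CPM in +/+ libraries. Elane, Ctsg, S100a8 and Ly6g had no read. Of 6 megakaryocyte markers 3 were tested and none passed (1 at an unadjusted p under 0.05, and 0 in DESeq2). Both tested of 5 mast cell markers were lower (1 in DESeq2), at summed levels of 0.698 to 1.66 against 8.29 to 30.2 CPM. Genes this low in K700E/+ cells can pass the filter on low counts through the +/+ libraries alone. The filter thus favours lower calls among granulocyte, macrophage and mast cell markers. Their counts cannot be set against the 23.1% of all tested genes that were lower. In bulk RNA, fewer cells of a type and less RNA per cell cannot be told apart. Total counts were 44045337 to 50077827 per K700E/+ library and 38785471 to 40702174 per +/+ library, so that the K700E/+ libraries were deeper.

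The K700E substitution lies in a spliceosome component that helps to choose the branch point and acceptor site, and the deposited splicing events were searched for the same 9 genes. PSI here is the share of the longer path of an event after division by path length. It followed the PSI deposited by the authors (Pearson r = 0.98), but only 63.9% of values lay within 0.05 of it. PSI differences given here need not equal those on the authors' scale. Psat1, Shmt2, Mthfd2, Mthfd1l and Tyms had 7 events, of which 6 reached 10 reads in every library, and Phgdh, Psph, Shmt1 and Mthfd1 had none. None of the 6 was a differential splicing event (DSE, adjusted p under 0.05 and absolute PSI difference over 0.10), nor did any have an unadjusted p under 0.05 except the Shmt2 intron. Limma on logit PSI also called 0 of them. DSEs made up 6.31% of the 17656 events tested over all genes.

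The alternative acceptors of Shmt2 and Tyms lie a few bases apart at annotated sites, and are printed from GENCODE M21 transcripts to show what the choice between them adds to the transcript. Lower case gives the exons on either side of the junction, and capitals mark the bases that only the longer path keeps.
Shmt2 junction of exons 1 and 2: gaccactcggCCTCTGCAGagatgtggtc
Tyms junction of exons 6 and 7: aggcctgcagACATTTTTAGccaggtgat
The 9 bases of Shmt2 lie in the coding sequence and keep the frame (chr10:127356936-127358197, GRCm39, minus strand). Their PSI was 0.846, 0.807 and 0.822 in K700E/+ and 0.821, 0.820 and 0.826 in +/+ libraries, at 1684 to 2686 reads per library. The genotypes overlapped (PSI difference 0.003, adjusted p = 0.94). The 10 bases of Tyms (chr5:30266999-30268274, GRCm39, minus strand) occur in Tyms-204, a transcript annotated for nonsense-mediated decay. In Tyms-204 the junction lies outside the coding sequence. The shorter path occurs in protein-coding transcripts and also in a transcript annotated for decay, Tyms-207. The PSI of the 10 bases was 0.0804, 0.0865 and 0.0704 in K700E/+ and 0.0996, 0.0863 and 0.0978 in +/+ libraries, at 760 to 1084 reads (difference -0.015, adjusted p = 0.45).

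The event nearest to the threshold was a 569-base intron of Shmt2 with 1 annotated splice site out of 2 (chr10:127356947-127357594, GRCm39, minus strand). Its PSI was 0.920, 0.903 and 0.860 in K700E/+ and 0.977, 0.980 and 0.943 in +/+ libraries. The annotated site is the acceptor that keeps the 9 bases above, and the other lies inside the intron between exons 1 and 2. The path that splices that whole intron to the same acceptor had 1407 to 2307 reads per library. This PSI thus compares unspliced reads of the stretch with use of the inner site. It is not the share of Shmt2 transcripts that keep the intron. It was lower in all 3 K700E/+ libraries, by 0.07, but the test was not passed (adjusted p = 0.094). Counting junction reads only, the difference was -0.12. The difference rested on few spliced reads, at 5, 6 and 10 in K700E/+ against 1, 1 and 4 in +/+ libraries, beside 355 to 539 reads of the retained path. A further intron, of 119 bases in Psat1, was covered by 5 to 17 reads per library and was not tested. Its spliced path had 5 reads in all over the K700E/+ libraries and 0 over the +/+ libraries.

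The largest PSI difference among the 6 tested events was that of a 407-base alternative donor of Tyms (chr5:30274913-30276670, GRCm39), at 0.74 ± 0.08 in K700E/+ and 0.63 ± 0.11 in +/+ cells (SD, n = 3). The libraries overlapped (difference 0.11, adjusted p = 0.47), with 69 to 95 reads each. It was 0.045 without replicate 1 of +/+, then smaller than that of the Shmt2 intron, 0.064 without replicate 3 of K700E/+ and 0.22 with junction reads only. An alternative donor of Mthfd2 (304 bases, chr6:83290492-83302737) and an alternative acceptor of Mthfd1l (106 bases, chr10:4098087-4105688) differed by 0.03 (adjusted p = 0.89) and 0.03 (adjusted p = 0.52). Among the other folate genes 16 events were tested and among serine and glycine genes 23, and none was a DSE, in the edgeR test or with limma on logit PSI. At an unadjusted p under 0.05 each of these lists held 3 events.

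In the methionine cycle 2 of 12 tested events were DSEs and in deoxynucleotide supply 1 of 20, beside 6.31% of all events tested. There was none among 11 tested events of purine synthesis, 22 of glycolysis, 17 of the amino acid response and 19 of S phase genes, by edgeR or limma, although 4 events of the amino acid response and 3 of S phase genes had an unadjusted p under 0.05, and 0 of the others. Rrm1 had a 7-base alternative acceptor with a PSI of 0.83 ± 0.03 in K700E/+ and 0.97 ± 0.02 in +/+ cells (difference -0.14, adjusted p = 0.0011). Mmadhc, which routes vitamin B12 toward methionine synthase, had a 40-base alternative acceptor at -0.11 (adjusted p = 3.3e-06) and a retained intron at 0.14 (adjusted p = 0.0047). The intron was no longer called with limma on logit PSI (adjusted p = 0.17). Events of 1 gene can share reads and are not independent.

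**Figure D4:**
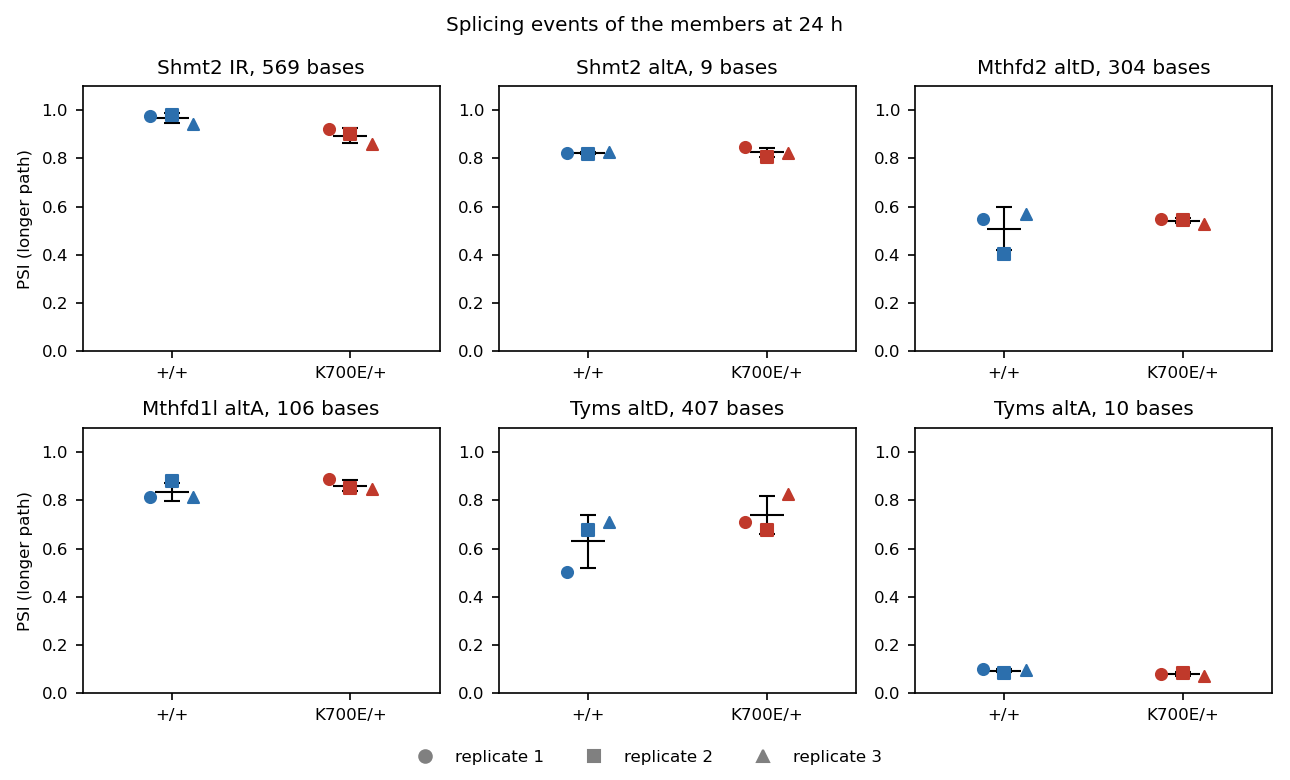
PSI of the longer path (vertical axis, 0 to 1) in each library for the 6 tested events of Shmt2, Mthfd2, Mthfd1l and Tyms (IR, retained intron, altA, alternative acceptor, altD, alternative donor). Symbols are replicates and black marks give mean ± SD (n = 3). The genotypes separate for the Shmt2 intron and overlap in the 5 other panels.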

How the data were processed

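RNA-sequencing libraries (TruSeq Stranded mRNA, paired-end) were examined at 24 h. The authors aligned reads with STAR 2.7.9 to GRCm39 and deposited raw counts of reads for each gene in each library. The study's software list names STAR for mapping and counting, there beside a human build, and fastp and samblaster for trimming and removal of duplicates. The annotation release is not given in the sources used here. Per the file headers, other deposited columns hold packed read numbers for both paths of 19323 splicing events from KisSplice. The deposited table of events also holds the authors' comparison (PSI differences and p-values), which was not used.

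Groups were taken from the labels. The gene test was run with edgeR 4.0.16 under R 4.3.3 (filterByExpr, TMM, quasi-likelihood F test, Benjamini-Hochberg adjustment over all tested genes). For events, reads of both read files were summed, events without a named splicing type and indels were left out, at least 10 reads were required in every library, and the path by genotype term was tested. Ratios of members used an exact permutation test. No test was made on lists.

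The same-numbered libraries deviated together from their genotype means (r = 0.63, 0.48 and 0.48 over 8771 genes), and the replicate numbers were taken to pair them. Replicate 3 of K700E/+ also went with replicate 2 of +/+ (r = 0.25), and replicate 2 of K700E/+ with replicate 3 of +/+ (r = 0.20). The pairing of replicates 2 and 3 is thus less clear than that of replicate 1. Pairs within a genotype differed by a chi-square per degree of freedom of 8.07 to 35.8, so none was a copy of another. Both steps were tested on simulated data, where most genes changed 2-fold and most events moved by 0.25 in PSI were called, but few of those moved by 0.10. Event coordinates are those of the files (GRCm39), promoters are from GRCm38.p6, and no coordinate was moved between them.

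The members and lists were chosen with earlier results of these data known. All 9 members are named with their values, with up to 4 genes of the lowest adjusted p from each other list, the DSEs of list genes outside the markers, and the 3 genes most like Mthfd2. Alternatives were DESeq2 size factors, no filter, a filter of 20 normalized reads in 3 of 6 libraries (looser than the study's, which drops a gene that is below this in 3), DESeq2 1.42.0, a replicate block, leaving out each library and, for events, coverage minimums of 5 or 20 reads, a PSI limit of 0.20, junction reads only and limma 3.58.1. Library totals without scaling factors were added after seeing the data.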

Additional observations from a re-analysis of the deposited data

How the results depend on the processing

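Psat1, Shmt1, Shmt2, Mthfd2 and Mthfd1l stayed higher and passed under all 12 alternatives, with adjusted p up to 0.0015, 0.0036, 0.040, 0.0012 and 0.035. Leaving out each library in turn gave log2 fold changes of 0.55 to 0.68 for Psat1, 0.86 to 1.16 for Shmt1, 0.24 to 0.32 for Shmt2, 0.50 to 0.57 for Mthfd2 and 0.26 to 0.37 for Mthfd1l. Psph passed under none (adjusted p 0.063 to 0.45). Members passing as lower numbered 0 in the test as reported, 2 with the replicate block (Mthfd1 and Tyms) and 1 with library totals only (Mthfd1, adjusted p = 0.044). Mthfd1 lay between -0.21 and -0.09 and Tyms between -0.30 and -0.08 when a library was left out, and the block changed no other call among the members. Library totals moved the median of all genes by -0.04. Events with higher and lower PSI numbered 383 and 731, but 228 and 326 with limma on logit PSI and 172 and 296 at a PSI difference over 0.20. No member event was called under any alternative run. Leaving out libraries gave -0.0076 to 0.012 for the 9-base acceptor of Shmt2 and -0.019 to 0.064 for the donor of Mthfd2, so that the direction of neither is given by these data. Depth limits the Shmt2 and Psat1 introns, whose spliced paths had few reads.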
